A study of Mus musculus with 24 samples.

Results

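The glutamate receptors and postsynaptic scaffolds described here are the array probes named for AMPA (Gria), kainate (Grik), NMDA (Grin) and metabotropic (Grm) glutamate receptor genes, for Dlg1 to Dlg4, for the Dlgap genes, for Shank1 to Shank3 and for Homer1 to Homer3. They were chosen by gene symbol only, whatever their values, together with 1 gene of a similar symbol that was not kept and is not reported here. The rule found 46 probes of 31 genes among the 25697 probes and 16593 named genes of the array. The hippocampus (CA1, CA2, CA3 and dentate gyrus) of 24 male and female C57BL/6 mice was measured with 1 array per mouse. There were 6 groups of 4: females aged 3 months (FY, young), 12 months (FA, adult) or 24 months (FO, old), and males of the same ages (MY, MA, MO). No mouse carried an engineered allele or received a drug, all females were killed in diestrus, and the old females were reproductively senescent, so female age and reproductive state cannot be told apart. Per the study's methods females were also lavaged daily for weeks before death and males were not, so sex and handling cannot be told apart.

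Glutamate carries most fast excitation in the hippocampus. AMPA receptors pass the fast synaptic current, NMDA receptors admit the calcium that starts plasticity, kainate receptors act on both sides of the synapse, and metabotropic receptors signal through G proteins. Under the membrane, Dlg proteins such as PSD-95 hold the receptors, Dlgap proteins tie Dlg proteins to Shank, and Homer links Shank to metabotropic receptors.

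A value below is a background-subtracted, normalized probe intensity on a linear scale, 1 per mouse, with the 4 mice of a group given in the order of their replicate numbers. Differences are in log2 after intensities under 16 were set to 16, and a probe was kept if all 4 mice of some group exceeded 16. By this filter 27 of the 46 probes, for 17 of the 31 genes, were kept, against 11901 of 25697 probes (46.3%) on the whole array. Letters name the probes of 1 gene, and intensities of different probes are not on a common scale. A probe was called changed at a Benjamini-Hochberg adjusted p under 0.05 over the 11901 kept probes in limma, from 1 model over all 6 groups.

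Between 11775 and 12437 probes were above 16 in an array, and Pearson's r between arrays across kept probes ranged from 0.952 to 0.994. The pan-neuronal marker list, of which 5 of 7 genes were kept, had a summed intensity of 16492 to 19556 over the 24 arrays. Old male replicates 1 and 3 (MO1 and MO3) stood apart over the whole array. Their limma array weights were 0.242 and 0.2997, beside 0.340 to 2.55 in the others. MO1 was above all others at 10.7% of kept probes and below all others at 16.4%, and MO3 at 13.8% and 12.4%. In MO3 the CA1 marker sum was 3169 (3528 to 5583 in the other 23 arrays), the CA3 sum 835 (951 to 1495), the dentate granule cell sum 619 (1569 to 3151) and the neocortex sum 2925 (1855 to 2634). MO3, labelled hippocampus like all others, thus had the lowest CA1, CA3 and dentate sums and the highest neocortex sum of the 24 arrays. Of the 5 CA1 markers only 1, Fibcd1, was below all other arrays (216, beside 1376 or more). The median deviation of the CA1 markers in MO3 from their MO means was -0.04 log2.

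All 4 AMPA receptor genes were kept, with all 9 of their probes. The kept kainate receptor genes were Grik1, Grik4 and Grik5, with 3 of 6 kainate probes. Of the metabotropic receptors, Grm7 and Grm8, presynaptic receptors of group III, were kept, with 1 probe each. The kept scaffold genes were Dlg2, Dlg3, Dlg4, Dlgap1, Dlgap2, Dlgap3, Dlgap4 and Homer1. Of the 27 kept probes, 26 were above 16 in all 24 arrays, and Gria4 was above 16 in 17 of them.

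None of the 5 NMDA receptor probes was kept. Grin2a ranged from 5.09 to 16.1 and Grin2b from 2.75 to 11.7 over the 24 arrays, and the probes of Grin2c, Grin2d and Grin3b were likewise near or below the floor. A probe that does not rise above background gives no level of its transcript, so no fold is given. The other probes not kept included those of Grik2, Grm3, Grm4, Grm6, Dlg1, Dlgap5 (a mitotic spindle protein despite its family name), Shank2 and Shank3, with Grik1 B and C, Homer1 C and D and Dlgap4 D. Among all 456 values of the 19 probes not kept, 11 exceeded 16. Grin1, Grin3a, Grik3, Grid1, Grm2, Grm5, Shank1, Homer2 and Homer3, among others, were not analysed here.

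No glutamate receptor or scaffold gene was called changed with age in either sex. Limma called 0 of 27 member probes, and 0 of 17 genes with 1 probe each, in the 3 age contrasts of females and the 3 of males. In females the share of all kept probes called was 0.714% from FY to FO, 0.361% from FA to FO, with 0% between FY and FA. In males it was 0.101% from MY to MO and 0% in the other age steps. With shares this low a count of 0 among 27 says nothing particular about the members. At an unadjusted p under 0.05 there were 2 members from FY to FO (7.41%, beside 6.65% of kept probes), 0 from FA to FO (beside 5.27%) and 3 from FY to FA (11.1%, beside 11%). In males there were 4 from MY to MO (14.8%, beside 11.4%), 0 from MY to MA (beside 2.07%) and 1 from MA to MO (3.7%, beside 5.5%). The test of the methods, an analysis of variance over age and sex followed by Newman-Keuls comparisons and a 1.2-fold limit, called 1 member from MY to MO (3.31% of kept probes) and 0 in the remaining age steps, where it called 2.89% (FY to FO), 2.03% (FA to FO), 2.81% (FY to FA), 0.605% (MY to MA) and 1.71% (MA to MO).

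The sizes of the age differences bound what went unseen. The median 95% half-width of a pairwise difference was 0.34 log2 over the 27 probes. From FY to FO the 95% interval lay within a 1.5-fold change in either direction for 22 of 27 probes and within a 2-fold change for all 27. From MY to MO it lay within 1.5-fold for 18 probes and within 2-fold for 25, the exceptions being Gria4 and Grm8. These intervals rest on a spread shared by all groups. The members' median SD between mice was 0.335 log2 in MO and 0.139 to 0.177 in the other groups. Intervals that involve MO may therefore be too narrow. The median difference over the 27 probes was -0.03 log2 in old against young females and -0.01 in males, beside -0.0013 and -0.03 over all kept probes.

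**Figure D1:**
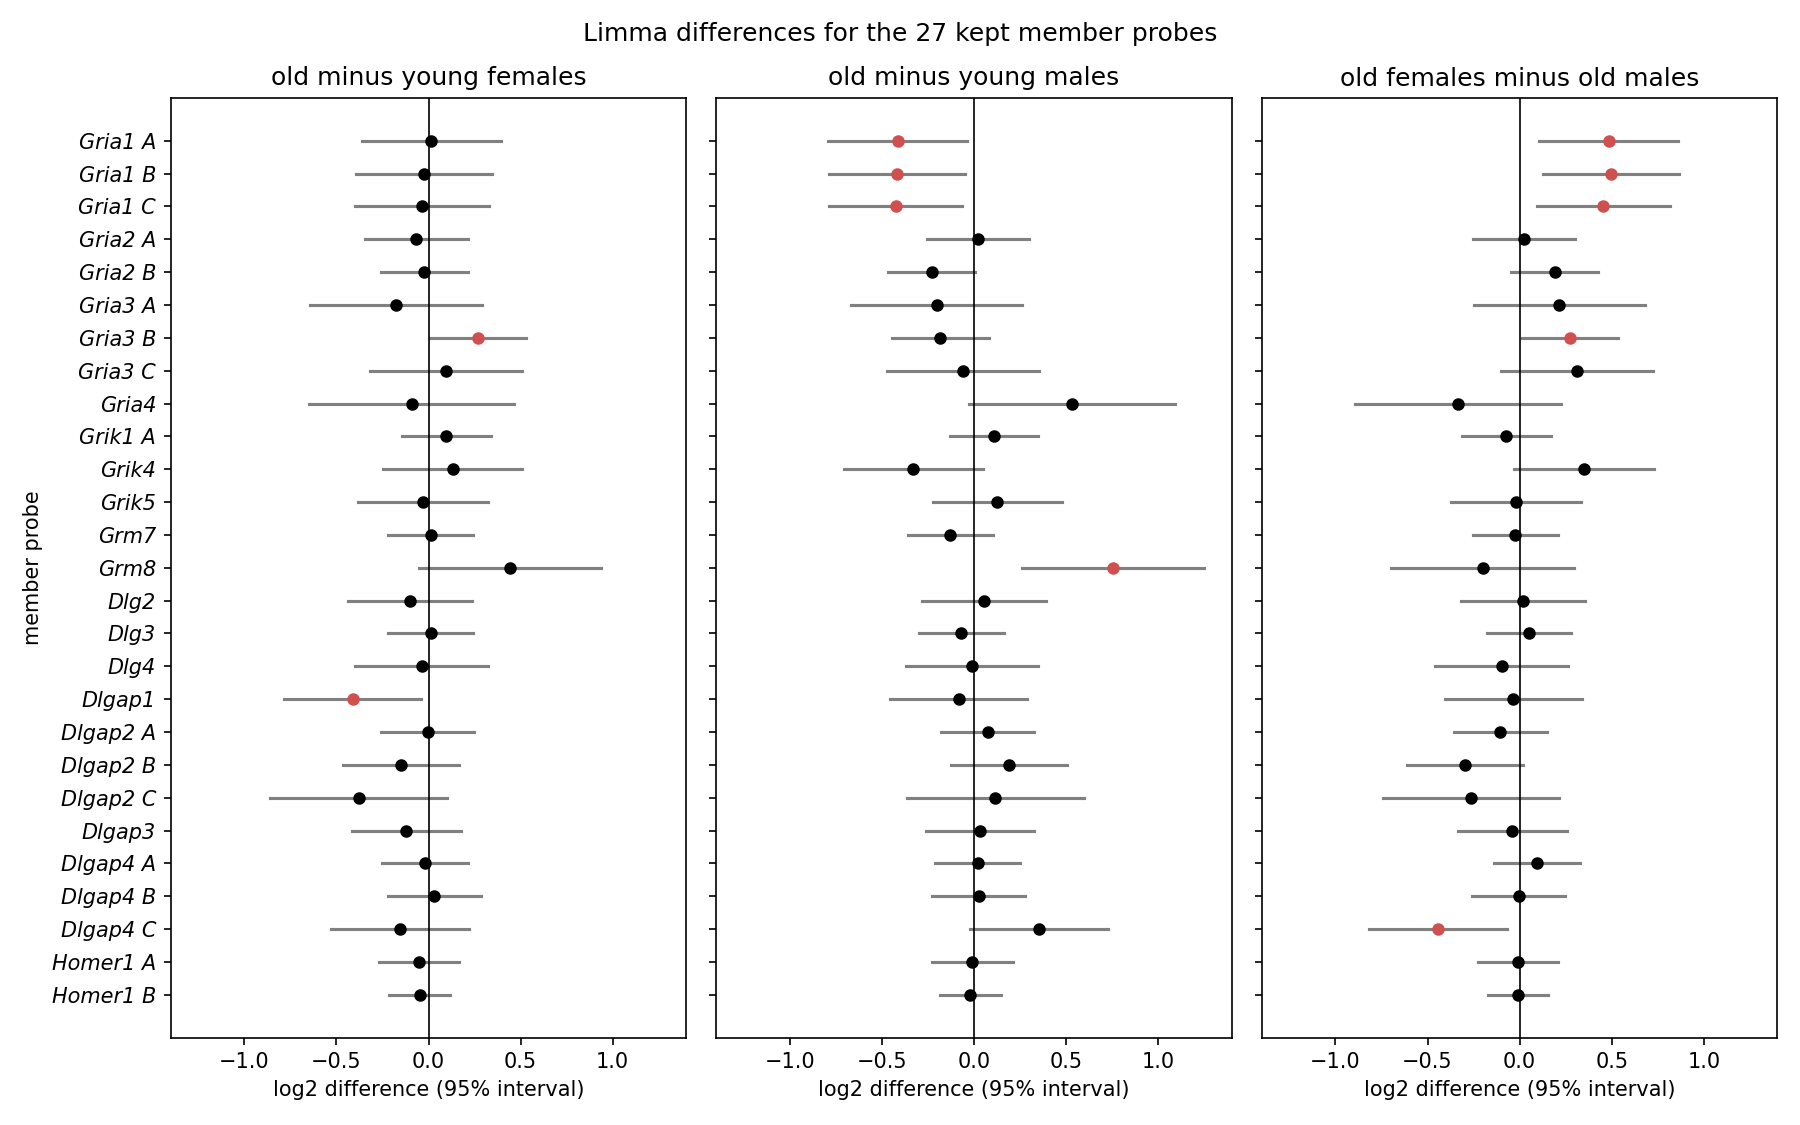
Log2 difference with its 95% interval (limma) for each of the 27 kept probes (rows), in old against young females, old against young males and old females against old males. Red points have an unadjusted p under 0.05 and none has an adjusted p under 0.05; Gria1 lies low in old males and Grm8 high, at 0.75 log2.

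Grm8 (chr6:27275121-28135146 of GRCm38.p6) encodes mGlu8, a G protein-coupled receptor that lowers transmitter release. Its intensity was 35.7, 46.8, 35.6 and 41.5 in FY, 44.2, 60.2, 46.3 and 58.5 in FA and 40.4, 72.1, 68.9 and 42.0 in FO. In males it was 38.4, 52.3, 37.1 and 24.4 in MY, 40.0, 66.3, 60.6 and 40.3 in MA and 55.9, 54.1, 91.7 and 53.0 in MO. Every MO array was above every MY array, while in females the lower 2 FO arrays lay inside the FY range. The difference from MY to MO was 0.75 ± 0.24 (SE; limma, adjusted p = 0.222) and from FY to FO 0.44 ± 0.24 (SE; limma, adjusted p = 0.825). Averaged over the sexes the difference from young to old was 0.60 ± 0.17 (SE; limma, adjusted p = 0.0931), the smallest adjusted p of any member in any contrast, with 1.27% of kept probes called in that contrast and 0 members.

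The size of the Grm8 difference varied with single mice. Whether the difference over both sexes passed the threshold depended on single mice and on the scaling of arrays. From MY to MO it ranged from 0.56 to 0.92 log2 over single arrays left out and from 0.54 to 0.78 over the other settings. MO3, at 91.7, was above the other 23 arrays, whose highest was 72.1, and without it the difference from MY to MO was 0.57 (limma, adjusted p = 0.548). The lowest MY array, at 24.4, was below the other 23, and without it this difference was 0.56 (adjusted p = 0.489). With quantile normalization the young to old difference over both sexes was 0.63 (adjusted p = 0.0474), and without MY replicate 2 it was 0.68 (adjusted p = 0.0489), both past the threshold. Grm8 was the 1 member that the test of the methods called from MY to MO, among 394 probes. The other kept metabotropic receptor, Grm7, was 42.1, 38.7, 48.8 and 43.0 in FY, 39.9, 44.2, 51.9 and 51.5 in FA and 47.2, 43.3, 41.0 and 42.4 in FO, and 49.9, 47.0, 51.1 and 45.4 in MY, 42.8, 55.2, 46.8 and 47.1 in MA and 47.7, 45.9, 41.2 and 42.2 in MO. It had a difference of -0.13 ± 0.11 (SE; limma, adjusted p = 0.68) from MY to MO and 0.01 ± 0.11 (SE; limma, adjusted p = 0.999) from FY to FO.

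Gria1 (chr11:57011571-57330244 of GRCm38.p6) encodes GluA1, the AMPA receptor subunit that is inserted at synapses during potentiation. At probe A the intensity was 2011.3, 1702, 1654 and 1727 in FY, 1825, 1624, 1822 and 1643 in FA and 1833, 1838, 1649.6 and 1835 in FO. It was 1496, 1724, 1558 and 2090.4 in MY, 1605, 1559.6, 1354 and 1608 in MA and 1849, 1481, 681 and 1428 in MO. A single old male, MO3, lay at less than any other array. MO1 lay within the range of the young males. MO2 and MO4 lay below every young male but within the range of the adult males. Probe B gave 1015, 887, 415 and 1008 in MO and probe C 937, 799, 384 and 851, with MO3 again below the other 23 arrays (866 or more at B and 776 or more at C).

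The difference in Gria1 from MY to MO was -0.41 ± 0.18, -0.42 ± 0.18 and -0.43 ± 0.17 log2 (SE) at probes A, B and C (limma, adjusted p = 0.386, 0.367 and 0.351). Without MO3 it was -0.11, -0.11 and -0.13 (limma, adjusted p = 0.801, 0.77 and 0.743). Without MO1 it was -0.59, -0.54 and -0.56, so its size depended on which old male was left out. In females the same 3 probes differed by 0.02, -0.03 and -0.04 from FY to FO. The 3 probes had the same sign in 8 of the 9 pairwise contrasts and never lay more than 0.11 log2 apart.

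MO3 was low in further receptor genes. Grik4, which encodes the kainate receptor subunit GluK4, had an intensity of 59.9, 49.3, 49.0 and 48.5 in FY, 50.1, 58.4, 57.1 and 46.8 in FA and 70.6, 45.4, 51.5 and 61.0 in FO. In males it was 67.7, 53.0, 48.4 and 54.8 in MY, 53.5, 48.7, 57.0 and 58.9 in MA and 45.9, 44.6, 28.4 and 65.6 in MO, with 28.4 in MO3 and at least 44.6 in the other 23 arrays. Its difference from MY to MO was -0.33 ± 0.18 (SE; limma, adjusted p = 0.512), and -0.12 without MO3 or -0.52 without MO replicate 4 (adjusted p = 0.178). Gria2 A, Gria2 B and Dlg3 were also lower in MO3 than in any other array, at 2860.5, 764 and 924. With these, 7 of the 27 member probes were lower there than in any other array (25.9%), beside 12.4% of all kept probes. The 7 include 3 probes of Gria1 and 2 of Gria2, repeat readings of a gene in 1 mouse, so the share is a description only.

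Some region markers of MO3 also lay outside the range of the other arrays, and others did not. In MO3 the CA1 marker Fibcd1 was at 216 (1376 or more in the other 23 arrays), the dentate granule cell markers C1ql2 and Prox1 were at 494 and 62.5 (at least 1347 and 103), and the CA3 marker Nptx1 was at 149 (at least 233). The neocortex markers Tbr1 and Cux2 were at 535 and 257 (at most 289 and 164). Below all other arrays in MO3 were 1 of 5 CA1, 3 of 5 CA3 and 3 of 4 dentate granule cell markers. So were 3 of 5 choroid plexus markers (Ecrg4, Kl and Sostdc1). Above all others were 2 of 7 neocortex, 3 of 5 thalamus, 2 of 5 interneuron and 1 of 5 pan-neuronal markers (Syt1). Of the 4 striatum markers, 0 were outside the range of the others. The other CA1 markers, Wfs1, Pou3f1, Mpped1 and Man1a, were within the range of the other arrays. The part of tissue composition in the low Gria1 and Grik4 of MO3 was not tested, and in tissue RNA fewer cells of a type and less RNA per cell cannot be told apart.

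**Figure D2:**
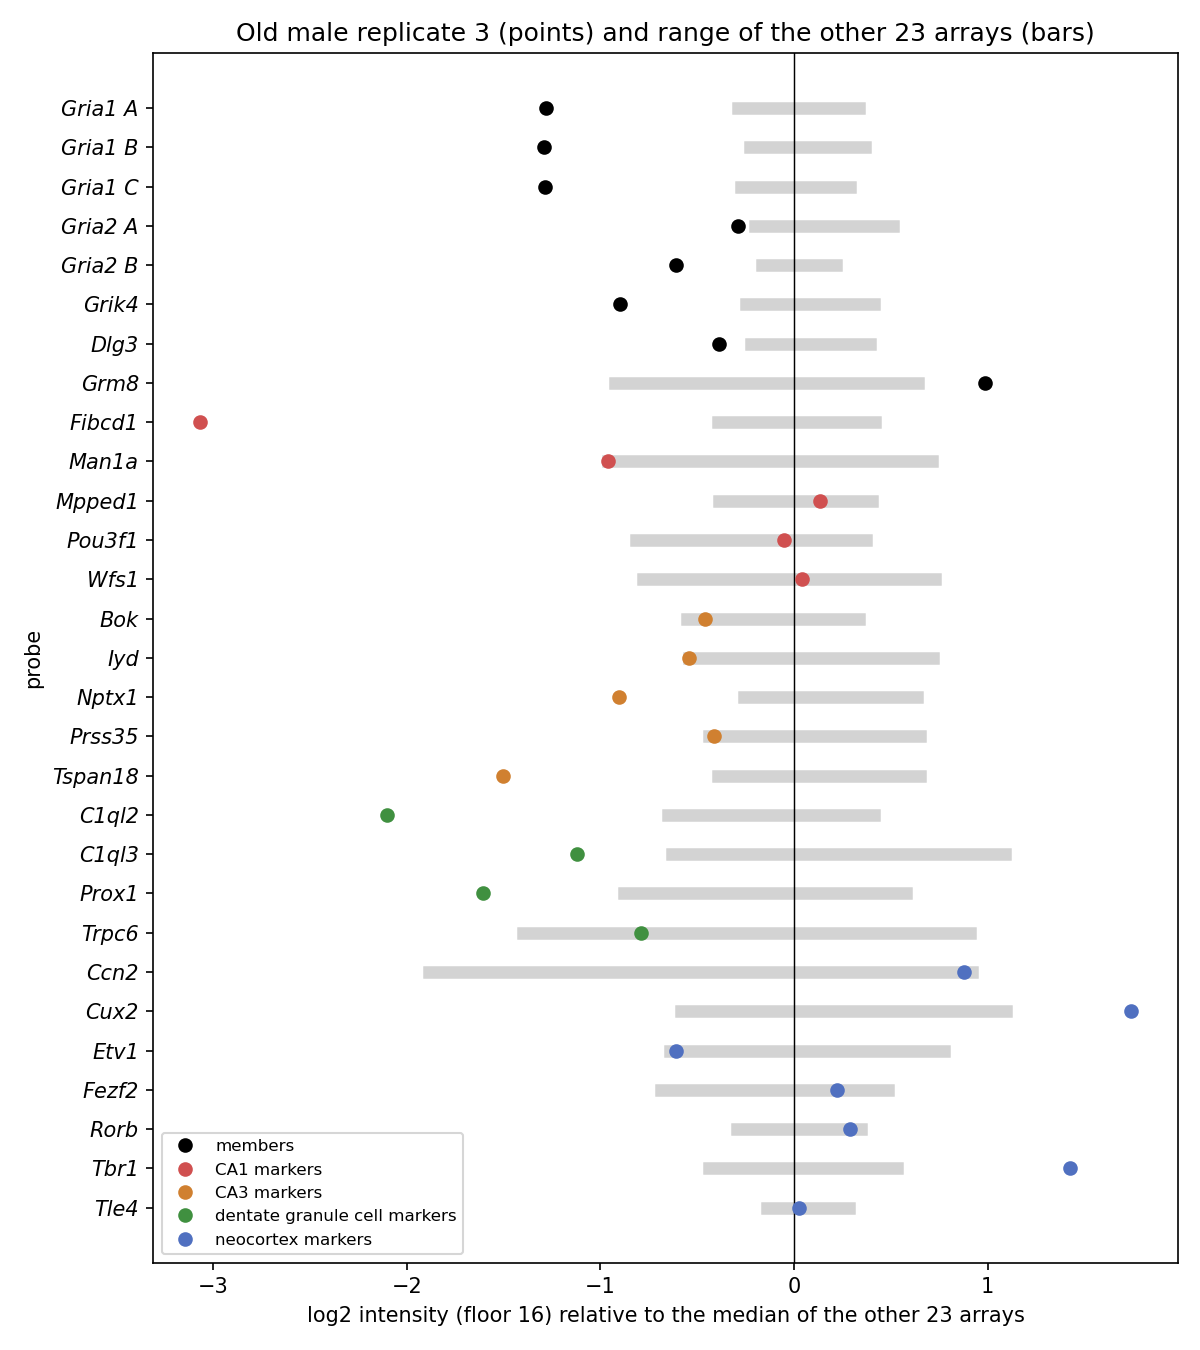
Each point is MO3 and each bar the range of the other 23 arrays, in log2 intensity (floored at 16) relative to the median of those 23, for 8 member probes and all kept CA1, CA3, dentate granule cell and neocortex markers. The 3 Gria1 probes lie below their bars with Fibcd1, C1ql2 and Prox1, while Tbr1 and Cux2 lie above theirs.

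Gria2 encodes GluA2, which sets the calcium permeability of AMPA receptors. Probe A read 3339, 3762, 4303 and 3765 in FY, 3317, 3415, 3634 and 3371 in FA and 3056, 3504, 4457 and 3553 in FO. It read 3219, 3491, 3337 and 4009.7 in MY, 3203, 3034, 4163 and 3588 in MA and 4982, 3339, 2860.5 and 3339 in MO, with MO1 above and MO3 below all other arrays and a difference from MY of 0.02 ± 0.13 (SE; limma, adjusted p = 0.97), or -0.14 without MO1 and 0.12 without MO3. From FY to FO the differences were -0.07 at probe A and -0.02 at probe B. The 2 probes had the same sign in 4 of 9 pairwise contrasts, and lay 0.25 log2 apart at most.

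Gria3 and Gria4 encode the other AMPA subunits. Gria3 A was 120.0, 131, 133 and 104 in FY, 76.5, 82.2, 87.7 and 83.0 in FA and 105, 105, 115 and 105 in FO, so that FA lay below both other female groups without overlap. In males it was 100.4, 141, 90.6 and 100.4 in MY, 122, 89.2, 169 and 84.6 in MA and 57.9, 72.3, 125 and 140.2 in MO. The difference from FY to FA was -0.56 ± 0.23 (SE; limma, adjusted p = 0.379), but Gria3 B differed by 0.19 and Gria3 C by -0.13. These probes lay up to 0.75 log2 apart in 1 contrast, the widest disagreement within any member gene. Gria4 was close to the floor, at 21.0, 24.8, 21.7 and 14.4 in FY, 8.31, 12.4, 16.5 and 21.3 in FA and 21.6, 8.99, 25.2 and 9.95 in FO, and 17.7, 16.1, 17.8 and 12.8 in MY, 18.9, 16.2, 47.0 and 20.8 in MA and 11.6, 19.7, 35.5 and 31.5 in MO. Its difference from MY to MO, with values under 16 set to 16, was 0.53 ± 0.27 (SE; limma, adjusted p = 0.473), and 0.35 without MO3.

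Dlgap1 and Dlgap3 encode SAPAP scaffolds, which bind PSD-95 and Shank. Dlgap1 was 34.4, 40.3, 54.6 and 34.4 in FY, 41.8, 31.7, 24.1 and 30.01 in FA and 28.4, 32.5, 31.5 and 28.6 in FO, and 27.3, 27.1, 39.3 and 39.6 in MY, 36.5, 36.9, 40.5 and 35.1 in MA and 39.2, 27.6, 32.3 and 26.1 in MO. FY and FO did not overlap and differed by -0.41 ± 0.18 (SE; limma, adjusted p = 0.688), or by -0.26 without FY3. In males it differed by -0.08 from MY to MO (95% interval -0.45 to 0.29). Dlgap3 was 142, 159, 205 and 152 in FY and 116, 118, 142 and 130.4 in FA, with 142.1 the lowest in FY and 141.7 the highest in FA, and differed by -0.37 ± 0.14 (SE; limma, adjusted p = 0.362). It was 144, 149, 139 and 173 in MY, 128, 122, 158 and 143 in MA and 199, 142, 142 and 141 in MO, where all groups overlapped. With FO at 129.6, 137, 199 and 143, the difference from FY to FO was -0.12 (95% interval -0.42 to 0.17).

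Few members had age groups that did not overlap. Between FY and FA these were Dlgap3 and Gria3 A, lower in FA, or 2 of 27 beside 7.81% of kept probes. Between FY and FO they were Gria3 B, higher in FO, and Dlgap1, lower in FO, or 2 of 27 beside 5.31%. Gria3 A was the 1 such probe between FA and FO (beside 5.44%) and Grm8 the 1 between MY and MO (beside 5.76%). There were 0 between MY and MA (2.36%) and 0 between MA and MO (1.61%).

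Dlgap2, a further SAPAP scaffold gene, had probes that went apart. Probe C was 77.3, 101, 145 and 54.6 in FY, 54.8, 63.7, 64.3 and 50.3 in FA and 57.2, 52.3, 96.9 and 74.3 in FO. In males it was 78.5, 83.5, 65.9 and 74.9 in MY, 67.5, 67.5, 112 and 83.7 in MA and 94.7, 68.8, 73.4 and 93.3 in MO. FY3 was the highest of all 24 arrays, and every FA array lay below every MA array. The difference from FY to FA was -0.61 ± 0.23 (SE; limma, adjusted p = 0.353), or -0.38 without FY3, where probes A and B differed by -0.06 and -0.19. Between FA and MA probe C differed by -0.48 ± 0.23 (SE; limma, adjusted p = 0.753).

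The Dlg genes encode the scaffolds that bind receptor tails. Dlg4, the gene of PSD-95 (chr11:70017203-70045535 of GRCm38.p6), was 278, 303, 377 and 307 in FY, 266, 251, 339 and 282 in FA and 254, 299.6, 364 and 317 in FO. It was 295, 323, 309 and 406 in MY, 274, 329.8, 282 and 329.6 in MA and 548, 282, 274 and 273 in MO. MO1 was above every other array, and the remaining 3 old males lay below the MY range. The difference from MY to MO was -0.01 ± 0.17 (SE; limma, adjusted p = 0.986), and -0.26 (adjusted p = 0.362) without MO1. Dlg2 and Dlg3, the genes of PSD-93 and SAP102, differed by -0.10 and 0.01 from FY to FO, and by 0.05 and -0.07 from MY to MO.

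Homer1, whose long products tether metabotropic receptors to Shank, had 2 kept probes that agreed closely. Probe A was 805, 812, 828 and 839 in FY, 686, 756, 841 and 917 in FA and 637, 800.1, 915 and 843 in FO. It was 709, 821, 809 and 876 in MY, 792, 696, 893 and 742 in MA and 723, 748, 884 and 842 in MO. The groups overlapped, and the differences were -0.05 (95% interval -0.27 to 0.17) in females and -0.01 (95% interval -0.23 to 0.21) in males. Probe B gave -0.05 and -0.02.

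**Figure D3:**
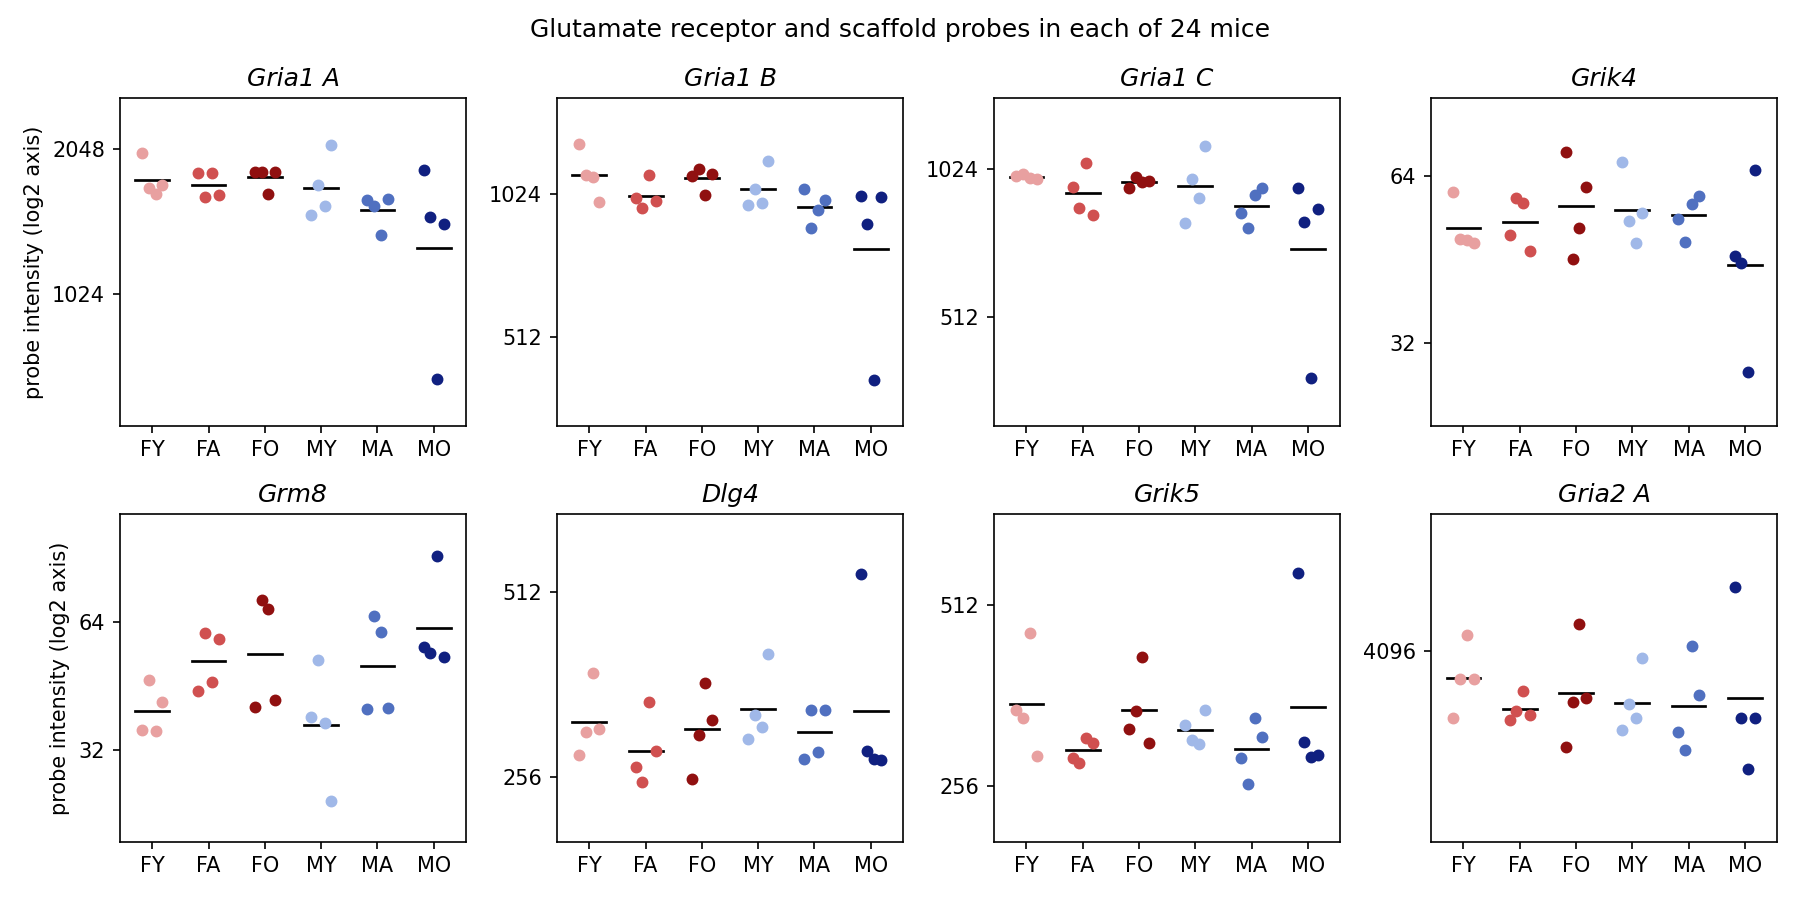
Intensity of 8 member probes in each mouse (points, log2 axis) by group, with the mean of log2 values as a bar. MO3 is the lowest point for Gria1 and Grik4 and the highest for Grm8, and MO1 is the highest for Dlg4, Grik5 and Gria2 A.

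No member was called between females and males either. Limma called 0 of 27 probes at 3, 12 and 24 months and on average over the ages, where 0.0336%, 0.0504%, 0.176% and 0.336% of kept probes were called. At an unadjusted p under 0.05 the members were 0, 2, 5 and 2 of 27, beside 6.97%, 6.55%, 9.68% and 10.3% of kept probes. The 5 at 24 months were Gria1 A, B and C and Gria3 B, higher in FO, and Dlgap4 C, lower in FO, which are 3 genes. In this contrast 3 of the 27 probes did not overlap between groups (Gria1 B, Gria1 C and Dlgap4 C), beside 4.42% of kept probes. At 3 months 0 did not overlap (beside 4.87%), and at 12 months 2 did not (Gria1 A, higher in FA, and Dlgap2 C, lower in FA, beside 5.12%). The test of the methods called 0 members at 3 months (2.86% of kept probes), 0 at 12 months (2.98%) and 1 at 24 months (4.84%).

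Gria1 was 937, 985, 963 and 970.5 in FO and 937, 799, 384 and 851 in MO at probe C, with the lowest FO array, at 937.1, just above the highest MO array, MO1 at 936.6. The difference of FO from MO was 0.48, 0.50 and 0.45 log2 at probes A, B and C (limma, adjusted p = 0.371, 0.33 and 0.38). Without MO3 it was 0.18, 0.19 and 0.16, and without MO1 it was 0.66, 0.62 and 0.59. The same probe C was 833, 776, 908 and 935 in MA and 941, 852, 1056 and 824 in FA, where the sexes overlapped.

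Gria3 B was 74.1, 72.7, 69.4 and 71.3 in FO and 78.3, 54.0, 55.0 and 53.6 in MO. MO1 was the 1 old male above the females, and the other 3 were below them. The difference of FO from MO was 0.27 ± 0.13 (SE; limma, adjusted p = 0.479), or 0.41 without MO1 (adjusted p = 0.156), and it was the 1 member the test of the methods called, among 576 probes. At adult age Grik1 A, which encodes the kainate subunit GluK1, was 122, 150.5, 153 and 163 in FA and 175, 164, 204 and 159 in MA, overlapping in part, a difference of -0.26 ± 0.12 (SE; limma, adjusted p = 0.753), or -0.17 without FA1. At the other ages it was 147, 174, 140.2 and 135 in FY, 150.2, 157, 165 and 147 in MY, 137, 168, 190.0 and 144 in FO and 153, 177, 186 and 154 in MO.

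The test of whether age acted differently in females and males called 0 of 27 members and 0% of kept probes in all 3 age steps. At an unadjusted p under 0.05 there were 2 members (young to adult, beside 9.39% of kept probes), 0 (adult to old, beside 3.85%) and 1 (young to old, beside 5.87%). The lowest adjusted p of a member was 0.509 (young to adult), 0.979 (adult to old) and 0.841 (young to old). The last was Gria3 B, whose change from young to old was 0.27 in females and -0.18 in males, a difference in change of 0.45 ± 0.18 (SE; limma, adjusted p = 0.841). At Gria3 A and C this difference in change was 0.03 and 0.16. Averaged over the sexes 0 members were called from young to adult and from adult to old, where 0.0084% and 0.328% of kept probes were. At an unadjusted p under 0.05 there were 2 members from young to adult (beside 2.96%), 0 from adult to old (beside 6.6%) and 1, Grm8, from young to old (beside 11.5%).

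The members' median spread between mice was widest in old males. The median SD of the 27 probes between the 4 mice of a group was 0.160 log2 in FY, 0.153 in FA, 0.177 in FO, 0.139 in MY, 0.154 in MA and 0.335 in MO. Over all kept probes it was 0.175, 0.134, 0.155, 0.127, 0.168 and 0.234. Without MO1 the value of the members in MO was 0.159, and with another single old male left out it reached 0.409. Without both MO1 and MO3, left out because they stood apart, it was 0.0851, over MO2 and MO4 only. Members are not replicates and no test was made of these medians. The most variable member was Dlgap2 C in FY (SD 0.596), Dlgap1 in FA (0.326), Grm8 in FO (0.449) and MY (0.451), Gria4 in MA (0.688) and Gria1 A in MO (0.627).

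MO1 was high in many members. Of the 27 probes, 17 were highest in MO1 among the 4 old males (63%, beside 28.8% of kept probes), and 7 were higher in MO1 than in all other 23 arrays (10.7% of kept probes were). These 7 were Dlg3 at 1587 (1309 at most elsewhere), Dlg4 at 548 (406), Dlgap2 A at 656 (504), Dlgap2 B at 334 (273), Dlgap4 C at 128 (79.1), Gria2 A at 4982 (4457) and Grik5 at 579 (459). Gria3 A was lower there than in any other array, at 57.9. Among probes that were not kept, Shank3 read 39.5 in MO1 and at most 15.5 elsewhere. Shank2 read 11.6 there and at most 4.12 elsewhere, all under the floor of 16. Other probes not kept went the other way. Dlg1, Grin2c, Grin3b, Grm3, Grm4 and Homer1 D were lower in MO1 than in any other array, with MO1 under the floor at each.

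Marker lists were counted in MO1 as well. Its CA3 sum of 1495 was the highest of the 24 arrays, with 2 of 5 CA3 markers (Nptx1 and Tspan18) above all other arrays. Its dentate granule cell sum was 3037 and its CA1 sum 3783, both within the range of the other arrays, with 0 of 4 and 0 of 5 markers outside it. Of the choroid plexus markers Ttr, at 15648, was above all other arrays, the other 4 were within their range, and the list's sum of 17196 lay below those of FY4 (17731) and FA1 (19853). Below all other arrays were 1 of 5 pan-neuronal markers (Map2), 2 of 4 striatum markers (Pde10a and Rgs9) and 1 of 5 thalamus markers (Rgs16), and 1 of 7 neocortex markers (Tle4) was above them. The part of these in the members' values was not tested.

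**Figure D4:**
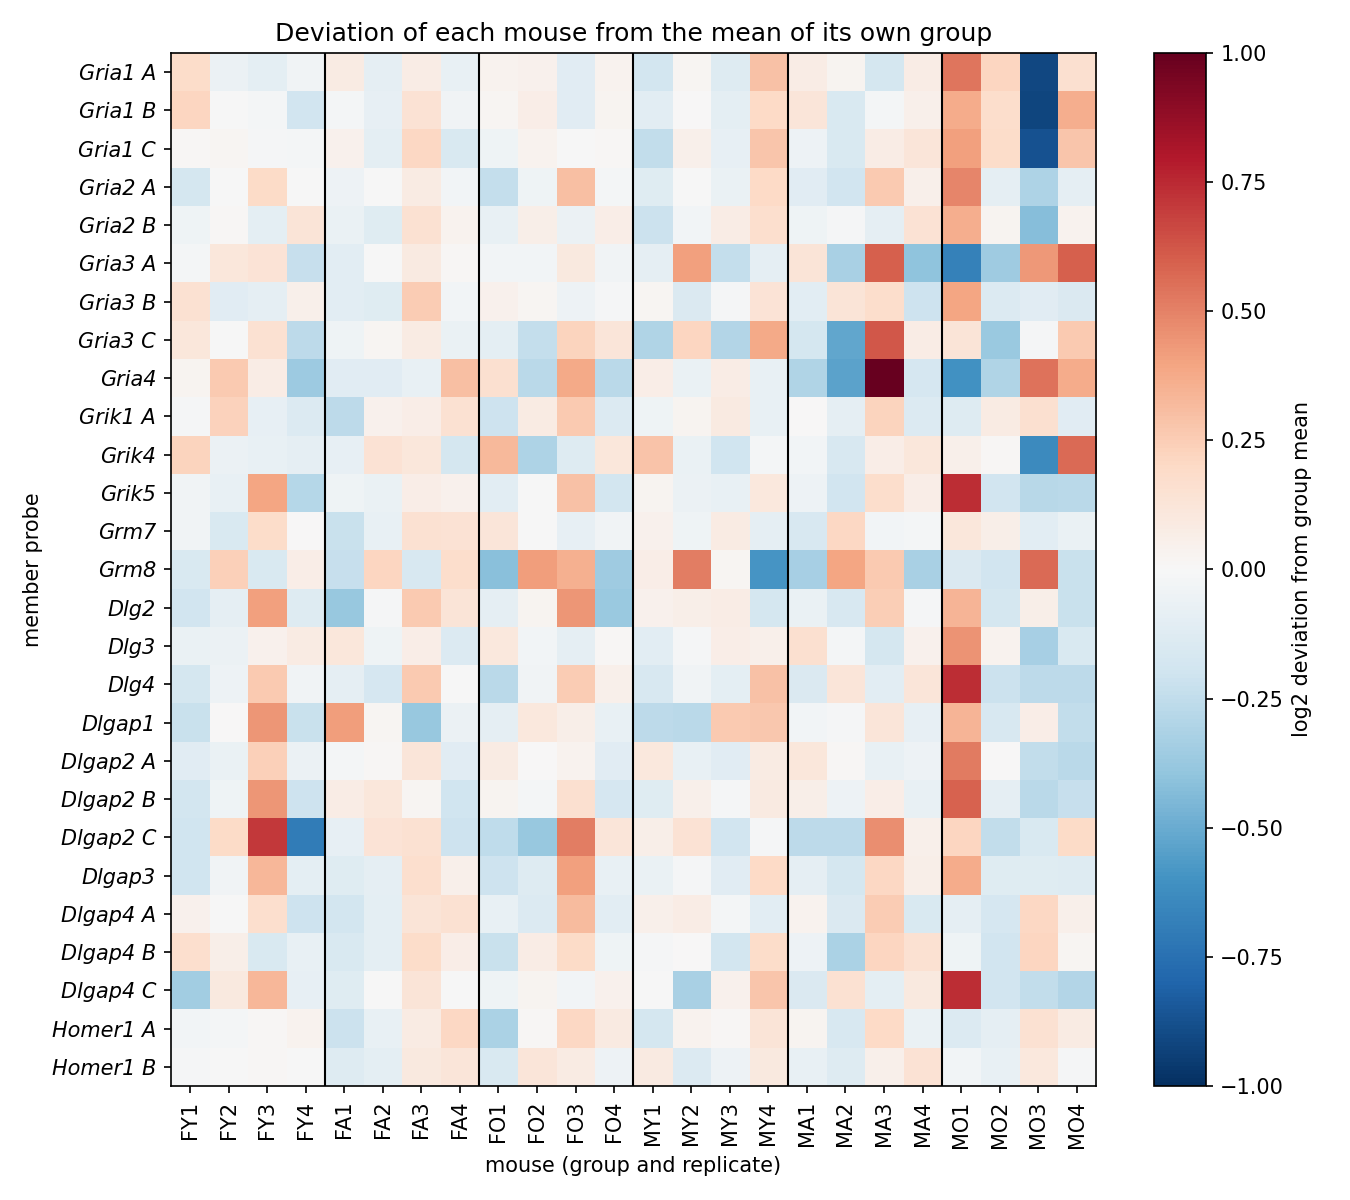
Deviation of each mouse (column) from the log2 mean of its own group, for each of the 27 kept probes (row), with colours cut at 1 log2 in either direction. MO1 is red over most receptor and scaffold rows, and MO3 is blue at Gria1, Gria2 and Grik4.

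In every other group, too, some mouse was the highest of its 4 at more members than the rest. That mouse was picked for its count and several genes have more than 1 probe, so the counts are given as a description only. They were 15 of 27 for FY3, 16 for FA3, 14 for FO3, 16 for MY4 and 15 for MA3. Over all kept probes these mice were highest at 36.8%, 23.5%, 41.3%, 26.5% and 34.1%. The median deviation of the members was 0.13, 0.11, 0.16, 0.11 and 0.17 log2 in these mice and 0.34 in MO1, while that of all kept probes lay between -0.04 and 0.04 log2. Dlg4, Dlgap3 and Gria2 A were above their group mean in FY3, FA3, FO3, MY4 and MO1, and Dlg4 was below it in MA3. Array weights were 0.340 in FY3, 0.414 in FO3 and 0.490 in MA3, against 1.36 in FA3 and 0.973 in MY4. FY3, FO3 and MA3 had the highest astrocyte sums (11293, 11924 and 10486) and interneuron sums (8747, 9343 and 9847) of their groups, while FA3 and MY4 did not. The dentate sum was the lowest of its group in FO3 (1569) and MA3 (1920.2), and the CA1 sum in FY3 (3528). Other sums of these mice went the other way. The CA1 sum was the highest of its group in FA3 (4966), MY4 (5142) and MA3 (5144), and the dentate sum in FY3 (2740) and MY4 (3030). Their part in the members' values was not tested.

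**Figure D5:**
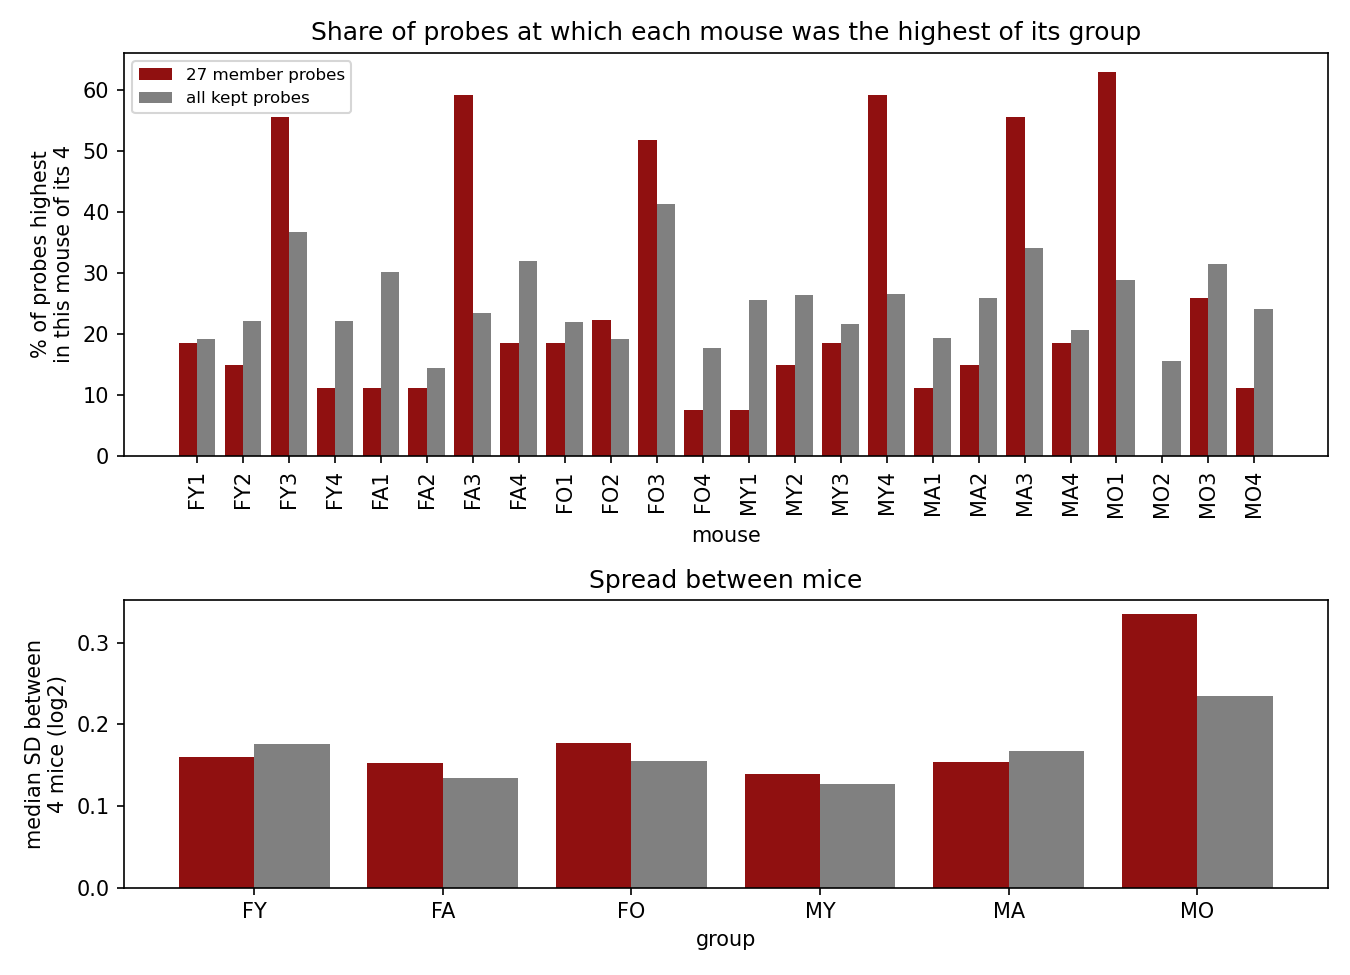
Upper panel: percentage of probes at which a mouse was the highest of the 4 in its group, for the 27 member probes and all kept probes. Lower panel: median SD between the 4 mice of each group in log2; in each group 1 mouse held 51.9% to 63% of the members, and the SD of the members was largest in MO at 0.335.

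Grik5, which encodes the kainate subunit GluK5 (chr7:25009849-25075694 of GRCm38.p6), was 341, 332, 459 and 287 in FY, 285, 279.6, 307 and 301 in FA and 318, 340.2, 419 and 302 in FO. In males it was 323, 305, 301 and 341 in MY, 285, 258, 332 and 309 in MA and 579, 303, 285 and 287 in MO, so that MO1 stood alone and the other 3 old males overlapped or fell below the young. Its difference from MY to MO was 0.13 ± 0.17 (SE; limma, adjusted p = 0.798), and its sign turned without MO1, to -0.12 (adjusted p = 0.703). Without MO3 it was 0.22. Dlgap4 C was 128, 67.2, 64.7 and 62.7 in MO and 54.9, 57.7, 55.3 and 58.2 in FO, and the difference of FO from MO was -0.44 ± 0.18 (SE; limma, adjusted p = 0.418), or -0.20 without MO1. Dlgap4 A, at 1077, 1041, 1169 and 902 in FY, 825, 877, 1025 and 1043 in FA and 981, 935, 1279.6 and 959 in FO and at 984, 1001, 941 and 885 in MY, 940.1, 832, 1095 and 827 in MA and 907, 857, 1112 and 999 in MO, overlapped between the sexes at every age. Probes A and B did not share the difference of probe C and differed by 0.10 and -0.0047.

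Promoter sequence is shown for 3 genes, chosen after their values were seen, each with a probe highest of all 24 arrays in MO1 and with 1 start each in the RefSeq promoter table (GRCm38.p6). Each run is the 250 bases before that start, in the direction of the gene, and all 3 starts lie inside the annotated span of their gene, so they are internal starts: chr3:80802836-80803085 on the minus strand for Gria2, chr7:25072370-25072619 on the minus strand for Grik5 and chr2:156720715-156720964 on the plus strand for Dlgap4. Capitals mark the GC box GGGCGG and the NRF1 motif (GCGC, 2 bases of any kind, GCGC) on either strand, and where these overlap the run is in capitals throughout.
Gria2: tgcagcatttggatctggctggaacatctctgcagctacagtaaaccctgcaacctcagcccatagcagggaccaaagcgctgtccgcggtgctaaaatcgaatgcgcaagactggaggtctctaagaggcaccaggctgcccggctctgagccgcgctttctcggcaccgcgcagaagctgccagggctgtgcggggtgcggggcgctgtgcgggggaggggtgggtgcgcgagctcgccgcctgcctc
Grik5: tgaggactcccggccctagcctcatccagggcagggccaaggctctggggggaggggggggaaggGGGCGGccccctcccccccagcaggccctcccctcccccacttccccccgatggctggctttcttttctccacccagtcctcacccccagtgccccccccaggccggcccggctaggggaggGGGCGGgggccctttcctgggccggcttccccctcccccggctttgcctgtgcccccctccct
Dlgap4: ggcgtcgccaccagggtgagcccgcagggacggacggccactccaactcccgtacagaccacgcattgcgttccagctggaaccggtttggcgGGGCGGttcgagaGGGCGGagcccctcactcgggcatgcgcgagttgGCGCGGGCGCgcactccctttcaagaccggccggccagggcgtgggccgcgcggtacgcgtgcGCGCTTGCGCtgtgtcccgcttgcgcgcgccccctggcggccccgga
Grik5 held 2 GC boxes, Dlgap4 held 2 GC boxes and 2 NRF1 motifs, and Gria2 held none of either in these bases. Of 27025 genes with a promoter sequence, 35.4% had the GC box and 5.64% the NRF1 motif within this window. Of the 17 kept member genes, 13 had a sequence, 7 of them with the GC box and 3 with the NRF1 motif. The cAMP response element TGACGTCA was in 1.77% of genes and in 0 of the 13. A motif match describes letters and not a binding site.

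Genes that serve these receptors were likewise not called. Of the receptor auxiliary subunits, which set the gating and traffic of AMPA and kainate receptors, 12 of 16 genes were kept, and of postsynaptic signalling and trafficking genes 19 of 25, of synaptic adhesion genes 12 of 16, and of glutamate transport and recycling genes 9 of 11. Limma called 0 of them in every contrast, where at most 1.27% of kept probes were called, so these counts say nothing particular about the lists. At an unadjusted p under 0.05 the largest share of a list was 25%, beside 11% of kept probes. These were 3 of 12 adhesion genes, lower from FY to FA. In many contrasts a list had 0%. Nlgn3, a postsynaptic adhesion protein that binds neurexin, was 249 ± 19.2 in FO and 193 ± 36.9 in MO (SD, n = 4), a difference of 0.39 log2 (limma, adjusted p = 0.196), and the test of the methods called it here and from MY to MO, at -0.32. Lrrtm1, a further synaptic adhesion protein, had a difference of females from males of -0.22 log2 over the ages (adjusted p = 0.133), and the test of the methods called it at adult age. The median difference of each list from FY to FO lay between -0.06 and 0.05, and from MY to MO between -0.19 and 0.07.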

How the data were processed

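Hippocampal RNA of 24 mice, 4 per group, was measured on Illumina Mouse Ref8 arrays, 1 array per mouse. The deposited values are normalized intensities, in which the authors had subtracted background and scaled arrays to a common average with GenomeStudio (version 2011.1, per the submitters' processing notes). They are linear, every array has a mean of 206.642, and 22.4% lie below 0. A table of unnormalized signal with 48 columns whose names match no sample was not used here, so detection p-values and chip batches were not analysed. The labels number 4 replicates per group, taken here as 1 mouse each, and p-values measure only the spread between these samples. Their number limits precision.

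Probes were named through the platform annotation (23978 with 1 symbol, 1719 with none), and coordinates and promoters come from RefSeq (GRCm38.p6). Intensities were floored at 16, transformed to log2 and fitted in R 4.3.3 with limma 3.58.1 (trend), 1 model over 6 groups, with Benjamini-Hochberg adjustment over 11901 kept probes. A fold change near the floor is understated. The limma procedure and the test of the methods were tested on simulated data. In the latter, Newman-Keuls comparisons were run between ages within a sex and between sexes within an age, with no adjustment over probes. The members, lists and markers were chosen with earlier results of these data known. Genes were named if called, if among the 3 smallest p of a pairwise contrast, if a fixed example (Gria1, Gria2, Grin1, Grin2a, Grin2b, Grik4, Grm5, Dlg4, Shank3, Homer1, Dlgap1) or if most variable in a group, and others named here were chosen after their values were seen. Counts over genes use the probe with the highest mean. Some genes of these families are not reported here. Alternatives covered the floor, normalization, centring, filter, array weights, the groups in the fit, a replicate block and left-out arrays.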

Additional observations from a re-analysis of the deposited data

Results flagged for a closer look

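Among 162 sets of 4 arrays (27 probes in 6 groups), 15 held an array far from the other 3 by Dixon's test at its 95% critical value (9.26%, beside 6.7% of all kept probes), where chance alone gives about 1 in 20. Of these 15, 7 lay in MO (25.9% of its probes, beside 8.06%), 3 in FY, 3 in FO, 1 in FA, 1 in MY and 0 in MA. In MO1 the array far above the others of its group was that of Dlg4 at 548 (nearest 282), Dlgap3 at 199 (nearest 142), Dlgap4 C at 128 (nearest 67.2), Gria3 B at 78.3 (nearest 55.0), Grik5 at 579 (nearest 303). In MO3 it was far below at Gria1 B at 415 (nearest 887) and far above at Grm8 at 91.7 (nearest 55.9). FY3 was far above the other young females at Dlg2 at 1041 (nearest 735), Dlgap2 A at 504 (nearest 411), and FY1 at Grik4 at 59.9 (nearest 49.3). FO3 was far above at Dlgap4 A at 1279.6 (nearest 981), Gria3 A at 115 (nearest 105) and far below at Gria1 A at 1649.6 (nearest 1833). FA4 was far above at Gria4 at 21.3 (nearest 16.5), close to the floor, and MY4 far below at Dlg2 at 613 (nearest 715). No test of a difference in age change between the sexes passed the threshold for a member.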

How the results depend on the processing

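Limma called 0 members in every contrast under every alternative, with 3 exceptions. The count was 1, for Grm8 from young to old over both sexes, with quantile normalization, with the replicate block (0.60 log2, limma adjusted p = 0.0352) and when MY replicate 2 was left out (the count ranged from 0 to 1 over single arrays left out). It was 1 under the test of the methods from MY to MO (Grm8) and for FO against MO (Gria3 B). The replicate block changed no other count of calls. Same-numbered mice deviated from their group means with a mean r of -0.0015 (60 pairs, -0.45 to 0.55), and differently numbered mice with 0.0026. These means differed little, and an effect shared by mice of 1 number in some groups was not tested. Among the named differences run under these alternatives, signs turned in those that follow, none of them called. From MY to MO, Dlg4 was 0.0166 with quantile normalization and 0.0135 with arrays centred, and Homer1 A was 0.0199 and 0.0173. Gria2 A was -0.019 with array weights and -0.0687 without MO1 and MO3, and Grik5 was -0.104 without both. Leaving out single arrays, Dlg4 ranged from -0.26 to 0.0861, Homer1 A from -0.0673 to 0.0379, Grik5 from -0.12 to 0.22 and Gria2 A from -0.143 to 0.124, and from MA to MO Gria1 A ranged from -0.436 to 0.0447 and Gria1 B from -0.421 to 0.00937. The median SD of the members ranged from 0.0993 to 0.207 in FO and from 0.159 to 0.409 in MO when single arrays were left out, and was 0.0851 in MO without MO1 and MO3. The cause of these changes was not tested. Where an old male was left out, the remaining arrays were assumed to vary like the other groups. Intensities near 16 limit Gria4 and the NMDA and Shank probes.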
